A study of Mus musculus with 71 samples.

Results

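Wild-type (WT) mouse embryonic stem cells were examined for how much RNA each gene gave, according to the H3K27me3 peak listed at its promoter. A gene was a member when the RNA-seq tables held exactly 1 RefSeq accession for it and it could be placed on a main chromosome of the mouse genome NCBIM37 (mm9), which left 16850 of 21816 placed genes, 15104 of them protein-coding. Each member was grouped by the WT H3K27me3 peaks within 2 kb of any of its annotated starts. No peak was listed for 14553 members, the top peak scored under 100 for 1055 and 100 or more for 1242. By width, the widest peak was under 2 kb ("narrow") for 1944 members and at least 2 kb ("broad") for 353.

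The cells were mESCs of the R1 line, genotype WT, grown on gelatin with leukaemia inhibitory factor and fetal bovine serum. The series asks how the linker histone H1 acts on H3K27me3, and also holds H1-TKO mESCs, which lack H1c, H1d and H1e. Used here were 1 WT H3K27me3 ChIP-seq list, made with an antibody against the mark, and 2 WT RNA-seq libraries. The paper describes its RNA libraries as poly(A) RNA-seq. The study states that the experiments were run independently in duplicate, and the spread between the 2 libraries may be technical. The growth text attached to the RNA-seq samples describes HeLa cells, while their source and cell type name mESCs and the accessions are mouse. With 1 peak list there was no replicate check of the mark. No test was run between groups of genes, which are not replicates, and the main shares and medians are given for each library.

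H3K27me3, trimethylation of lysine 27 on histone H3, is laid down by Polycomb repressive complex 2 (PRC2). In embryonic stem cells it is known to lie over CpG-rich promoters of developmental regulators that are held at low expression, often together with marks of active promoters. Promoters of most housekeeping genes are also CpG-rich but lack the mark, and promoters of many tissue-specific genes are CpG-poor and inactive by other means.

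The promoters below are examples, mostly extremes of score or level, and not typical members of the groups. Each runs from 270 bases before the start of the longest transcript to 30 bases from it, 5′ to 3′ on the gene's strand in NCBIM37, with each CpG in capitals. Sfi1 had the highest peak score of any member (chr11:3093413-3093712, minus strand, 24 CpGs), Mt2 the highest level among members with a score of 100 or more (chr8:96696248-96696547, plus strand, 26 CpGs), Wnt1 a broad peak over its start and no reads (chr15:98620018-98620317, plus strand, 26 CpGs), Eef1a1 the highest level of the coding members without a peak (chr9:78329502-78329801, minus strand, 21 CpGs), and Alb, the liver gene for serum albumin, neither a peak nor a CpG-rich promoter (chr5:90889645-90889944, plus strand, 3 CpGs).
Sfi1: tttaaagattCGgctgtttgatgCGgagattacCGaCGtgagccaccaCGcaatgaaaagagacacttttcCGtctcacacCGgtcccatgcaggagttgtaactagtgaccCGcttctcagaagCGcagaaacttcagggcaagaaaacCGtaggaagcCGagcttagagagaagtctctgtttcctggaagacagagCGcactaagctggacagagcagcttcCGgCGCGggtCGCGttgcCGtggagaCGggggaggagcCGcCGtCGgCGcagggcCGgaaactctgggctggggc
Mt2: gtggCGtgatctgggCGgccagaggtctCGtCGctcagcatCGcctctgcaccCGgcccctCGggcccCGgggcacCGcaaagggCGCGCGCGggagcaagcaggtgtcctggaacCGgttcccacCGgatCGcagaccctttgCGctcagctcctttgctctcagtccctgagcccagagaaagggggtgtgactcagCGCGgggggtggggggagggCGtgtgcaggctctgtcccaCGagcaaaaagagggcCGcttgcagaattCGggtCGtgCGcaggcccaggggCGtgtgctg
Wnt1: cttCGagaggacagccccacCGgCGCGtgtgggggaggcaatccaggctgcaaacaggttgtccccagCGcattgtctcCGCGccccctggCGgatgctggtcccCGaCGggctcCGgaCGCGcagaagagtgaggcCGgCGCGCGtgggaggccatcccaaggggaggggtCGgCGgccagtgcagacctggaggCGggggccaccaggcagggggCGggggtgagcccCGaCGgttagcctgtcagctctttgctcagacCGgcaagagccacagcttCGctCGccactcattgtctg
Eef1a1: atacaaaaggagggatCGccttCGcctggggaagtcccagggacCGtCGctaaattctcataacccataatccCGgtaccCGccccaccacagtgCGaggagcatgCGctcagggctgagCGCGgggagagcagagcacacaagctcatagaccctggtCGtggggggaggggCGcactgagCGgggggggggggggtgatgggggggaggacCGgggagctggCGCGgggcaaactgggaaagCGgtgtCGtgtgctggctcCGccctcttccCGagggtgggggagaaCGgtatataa
Alb: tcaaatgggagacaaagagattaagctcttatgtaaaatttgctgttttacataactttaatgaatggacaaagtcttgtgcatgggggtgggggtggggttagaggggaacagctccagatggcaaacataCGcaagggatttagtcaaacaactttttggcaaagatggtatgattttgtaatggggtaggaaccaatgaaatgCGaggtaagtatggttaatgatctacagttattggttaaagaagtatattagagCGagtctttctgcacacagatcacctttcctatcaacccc
The CpG content used below is the observed to expected CpG ratio over 1 kb centred on the start. Its median over members was 0.51, and 43.3% of members were CpG-rich, with a ratio of at least 0.6. The ratio was 0.82 for Sfi1 and Eef1a1, 0.77 for Mt2, 0.58 for Wnt1, just under that limit, and 0.31 for Alb.

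Levels are the deposited normalized counts divided by the length of the longest transcript in kb. Summed over the accessions of the tables, the counted reads, recovered from the normalized counts, were 10538507 in WT replicate 1 and 8292007 in replicate 2, where 1 read was worth 0.776 and 1.09 normalized counts. The sample labels give these libraries the genotype opposite to that in their table and column names. The names were followed, and the knocked-out genes were read as a check: H1f3 (H1d) had 5 and 38 reads in the tables named WT against 1 and 0 in those named H1KO, H1f4 (H1e) 7 and 18 against 0 and 2, and H1f2 (H1c) 15 and 52 against 17 and 7, so H1f2 did not separate the tables. These counts are few, and the higher WT count of each gene was in replicate 2, where histone genes were higher as a list. Poly(A) libraries may also miss histone RNA, so the check is weak. Replicate 2 stood apart, since Rn45s, the 45S ribosomal RNA precursor, took 11.8% of its normalized counts against 1.98% to 2.08% in the other 3 libraries. Of 25 pluripotency markers 21 had at least 10 normalized counts in both libraries, among them Pou5f1 with 2648 and 5122 and Sox2 with 3958 and 5441. Nanog, a defining marker, was listed at 0 under all 4 of its accessions, and such genes with several accessions were left out of the members.

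Genes with a peak were less often expressed and also less often silent than genes without one. A gene is called expressed here at 10 or more normalized counts per kb in both libraries, which 7899 of the 16850 members reached (46.9%). Of the genes without a peak 49.1% were expressed (95% Clopper-Pearson interval 48.3 to 49.9), of those with a score under 100 35.2% (32.3 to 38.1), and of those with a score of 100 or more 30.4% (27.9 to 33.1). The intervals cover counting error only, since genes are not replicates. In replicate 1 alone the 3 shares were 51.1%, 42.4% and 40.3%, and in replicate 2 alone 51.1%, 38.0% and 33.1%. The order of the groups was thus the same in both libraries, while the distance between the groups was larger in replicate 2. The median level was 11.7 and 11.96 normalized counts per kb in replicates 1 and 2 for genes without a peak, 6.49 and 4.44 with a score under 100, and 5.54 and 3.67 with a score of 100 or more.

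A gene is called silent here under 1 normalized count per kb in both libraries, which 32.6% of members were. The silent share was 34.3% without a peak (33.5 to 35.04), 22.8% with a score under 100 (20.3 to 25.5) and 21.4% with a score of 100 or more (19.2 to 23.8). By replicate 1 alone the 3 shares were 37.01%, 26.5% and 25.1%, and by replicate 2 alone 37.5%, 30.1% and 32.05%. The difference between no peak and a score of 100 or more was thus smaller in replicate 2, where the order of the 2 peak groups also turned. Genes with no read in either library made up 28.7%, 10.2% and 8.78% of the 3 groups. Marked genes lay more often between the 2 limits: 48.1% of those with a score of 100 or more, 42.0% of those under 100 and 16.6% of those without a peak were neither silent nor expressed. The difference in silent share between a score of 100 or more and no peak, −12.84 percentage points, turned to 6.04 over genes with at least 1 read in the libraries together. The difference in expressed share, −18.70 points, was −3.93 when counts were not divided by transcript length. The median transcript length was 2057 bp without a peak, 3084 bp with a score under 100 and 3228 bp with a score of 100 or more. In bulk RNA, few cells with a transcript cannot be told apart from little RNA in each cell.

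**Figure D1:**
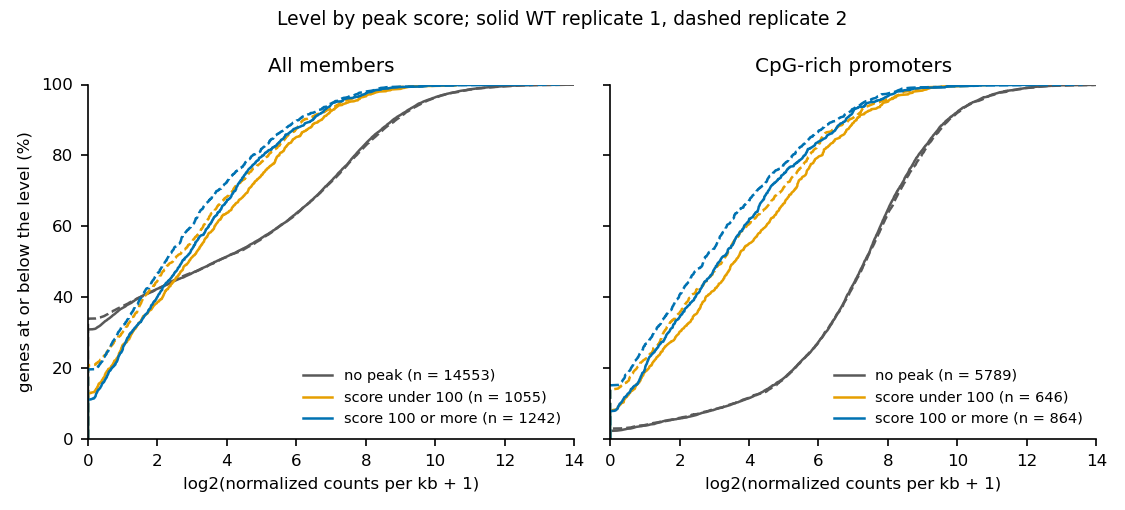
Cumulative share of genes (%) at or below each level, log2(normalized counts per kb + 1), by H3K27me3 score group, for all members and for members with CpG-rich promoters; solid lines are WT replicate 1 and dashed lines replicate 2. Over all members the curves cross, with 28.7% of genes without a peak at no reads in both libraries, whereas among CpG-rich promoters both peak groups lie above the curve of genes without a peak at every low level.

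The group without a peak was itself made of unlike genes. Olfactory and vomeronasal receptor genes, which are transcribed in sensory neurons, made up 1384 of its 4986 silent genes (27.8%). Without these families 54.5% of the genes without a peak were expressed and 27.5% were silent, so the silent share still exceeded that of both peak groups. Among CpG-poor promoters, with a ratio under 0.4, 6995 genes had no peak and 64.0% of them were silent, with a median of 0 in both libraries. Of the 300 CpG-poor genes with a peak 36.3% were silent and 17.7% expressed (13.5 to 22.5), against 979 of the 6995 expressed without a peak (13.2 to 14.8%).

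Among CpG-rich promoters the separation was wide and the silent share turned round. Of 5789 genes without a peak 89.2% were expressed (88.4 to 90.0), with a median of 159 and 163 normalized counts per kb in replicates 1 and 2. Of 646 genes with a score under 100 43.8% were expressed (39.9 to 47.7), with medians of 11.04 and 8.35, and of 864 genes with a score of 100 or more 36.3% (33.1 to 39.7), with medians of 7.84 and 5.41. Silent genes were 3.13% of those without a peak and 16.6% in each peak group. In the class with a ratio of 0.4 to 0.6, 56.8% of 1769 genes without a peak and 20.3% of 487 genes with one were expressed. CpG-rich promoters were 39.8% of the genes without a peak, 61.2% of those with a score under 100 and 69.6% of those with a score of 100 or more.

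Read the other way, peaks were most frequent at genes of low level. A peak was listed at 4.94% of members with no reads, 26.6% of those with reads and a mean under 1 normalized count per kb, 30.5% at 1 to 10, 19.0% at 10 to 100, 4.47% at 100 to 1000 and 1.62% at 1000 or more. Within CpG-rich promoters the shares were 45.0%, 68.8%, 60.9%, 24.6%, 4.83% and 1.69%. Thus 232 of the 337 CpG-rich genes with reads but a mean under 1 per kb had a listed peak, and 8 of the 474 at 1000 or more. The median score of the peaks hardly moved across these levels, from 101 to 113 over all members, while the median of the widest peak fell from 1146 bp at under 1 per kb to 442 bp at 1000 or more.

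**Figure D2:**
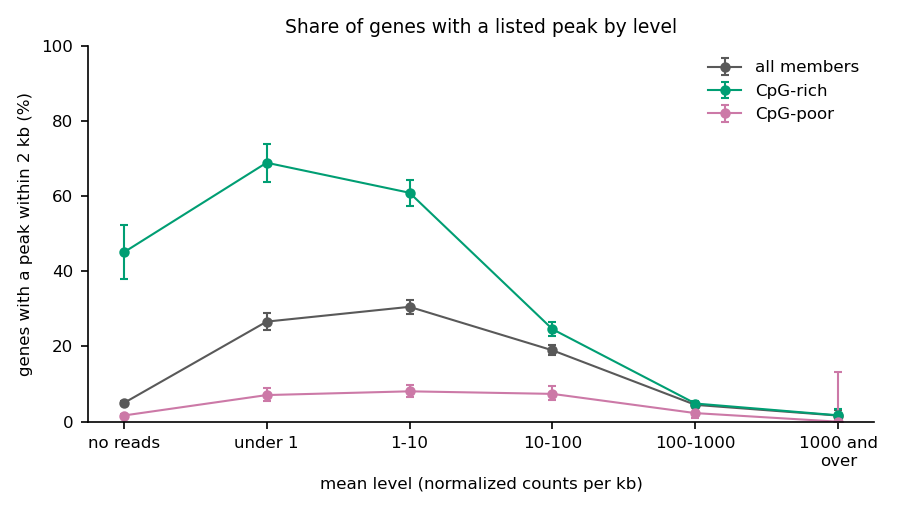
Share of genes (%) with a WT H3K27me3 peak within 2 kb of a start, by mean level over the 2 WT libraries in normalized counts per kb, for all members and for CpG-rich and CpG-poor promoters; bars are 95% Clopper-Pearson intervals. The share among CpG-rich promoters is 68.8% at under 1 per kb and 1.69% at 1000 or more, and stays at 8.07% or less among CpG-poor promoters.

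The score of the peak separated expression less than width or position did. In bins of the top score from 50 to 60 up to 300 to 500 the expressed share ran 38.2%, 36.0%, 31.1%, 29.9%, 25.7%, 33.0% and 35.04%, and the 10 genes with a score of 500 or more included 6 that were expressed. Over the 2297 genes with a peak, Spearman's rho of score with level was −0.02 in both replicates, and over the 1510 with CpG-rich promoters it was −0.08 in both. Without chromosomes 1, 8, 11, X and Y, an alternative chosen after seeing the data, 34.2% of genes with a score under 100 and 26.7% of those with 100 or more were expressed. These genes share the peak list and the libraries, so this is a description without a p. The MACS score is a p-value scale, not an amount of the mark. Around the limit of 100, Ptgdr (100.03), a prostaglandin D2 receptor, had 0.73 and 2.05 normalized counts per kb and Chst7 (100.06), a sulfotransferase, 14.4 and 4.94, against 5.46 and 8.48 for the kinase gene Wnk4 (99.83) and 4.73 and 2.66 for Brinp2 (99.80), so the members on either side of it overlapped.

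Width and position did separate the marked genes. The expressed share was 45.6% with a widest peak under 500 bp (41.7 to 49.6), 33.7% at 500 to 1000 bp, 28.9% at 1000 to 1500 bp, 23.2% at 1500 to 2000 bp, 19.3% at 2000 to 3000 bp and 15.4% at 3000 bp or more (9.06 to 23.8). Broad peaks gave 18.1% (14.3 to 22.6) and medians of 2.04 and 1.55 normalized counts per kb, and narrow peaks 35.2% (33.1 to 37.4) and medians of 7.26 and 4.81. The 68 genes with a broad peak and a score under 100 were the lowest of the crossed groups, with 4 expressed (5.88%), 51.5% silent and medians of 0.77 and 0.51. The 285 with a broad peak and a score of 100 or more had 21.1% expressed and medians of 2.53 and 1.76. Score and width went together (rho 0.66), and rho of width with level was −0.22 in both replicates over all genes with a peak, and −0.35 and −0.36 over the 1510 with CpG-rich promoters.

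A peak that covered a start went with lower levels than a peak beside it. Of 895 genes with a start inside a peak 20.3% were expressed (17.7 to 23.1), and the share was 37.4% with the peak 1 to 500 bp away, 44.7% at 500 to 1000 bp and 43.8% at 1000 to 2000 bp (37.7 to 50.1). The difference was alike at both scores: 20.4% against 41.2% for covering and neighbouring peaks of 100 or more, and 20.2% against 39.9% for peaks under 100. Within CpG-rich promoters 23.4% of 608 genes with a covering peak and 50.4% of 902 with a neighbouring peak were expressed. Within those promoters, the share was 15.8% for genes with a start inside a peak whose widest peak within 2 kb, not always the covering one, was broad, and 26.5% where it was narrow. In replicate 1 alone these shares were 25.4% and 35.96%, and in replicate 2 alone 16.9% and 29.5%. For genes with peaks only beside a start it was 30.6% and 52.5%. A neighbouring peak still left the share far under the 89.2% of CpG-rich genes without a peak.

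**Figure D3:**
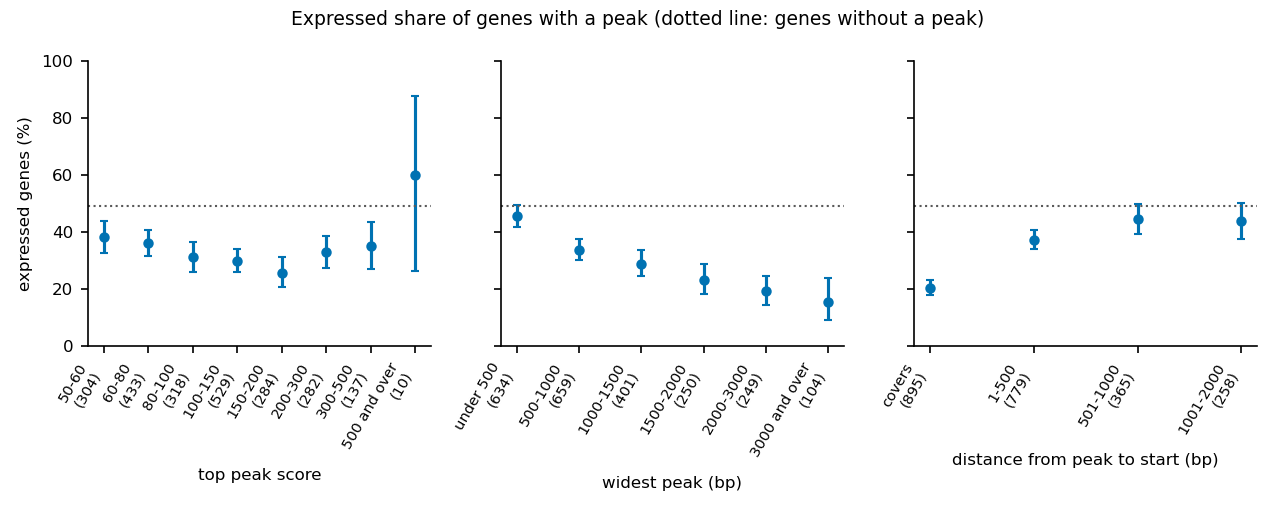
Share of genes (%) expressed in both WT libraries among genes with a peak, by top score, by widest peak in bp and by distance of the nearest peak from a start in bp, with the number of genes in parentheses; bars are 95% Clopper-Pearson intervals and the dotted line is the 49.1% of genes without a peak. The share goes from 38.2% to 25.7% over the first 5 score bins and is 35.04% at 300 to 500, falls from 45.6% to 15.4% with width and rises from 20.3% for a covering peak to 43.8% at 1000 to 2000 bp.

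The most highly expressed genes with a peak had it to one side, and often upstream. All 10 members of highest level with a score of 100 or more had their peak beside a start, in 9 of them upstream. These were Mt2 and Mt1, the metallothioneins that bind zinc and copper, Ckb (brain creatine kinase), Rpl7 (a protein of the large ribosomal subunit), Tubb6 (a beta-tubulin), Mrpl34 (a mitochondrial ribosomal protein), Hdac2 (a histone deacetylase), Grwd1, Arpc5 (a subunit of the Arp2/3 actin complex) and Lsm14b (an RNA-binding protein). Mt2 had 6107 and 12512 normalized counts per kb in replicates 1 and 2, with its only peak, of score 102, at chr8:96695256-96695673, 845 bp upstream of the start. Mt1 had 3846 and 7663 and the only downstream peak of the 10, at chr8:96703425-96704291, which begins within the gene 314 bp from the nearest start. Both metallothioneins were about 2-fold higher in replicate 2, with log2 gaps of 1.03 and 0.99. Hdac2 had 840 and 746, with a peak of score 281 at chr10:36692928-36693884 that ends 466 bp before the start. Grwd1 had 603 and 915 beside the highest score of the 10, 554, on a peak of 1895 bp that lies 1529 bp upstream.

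By mean level, the top peak lay upstream at 17.8% of the 624 genes with a peak and under 1 normalized count per kb, 14.6% of the 782 at 1 to 10, 13.8% of the 697 at 10 to 100 and 39.7% of the 194 at 100 or more. It covered a start at 44.4%, 39.1%, 26.1% and 11.9% of them. The remainder lay downstream, within or past the 5′ end of the gene, at 37.8%, 46.3%, 60.1% and 48.5%. Of the 50 highest levels with a peak, 1 had a peak over a start. The highest levels with a covering peak, looked up after the values were seen, belonged to Rbm38 (301 and 470 normalized counts per kb), which encodes an RNA-binding protein, Nr2f6 (221 and 325), an orphan nuclear receptor, and Trim44 (264 and 222). With a broad covering peak they included the neurofilament gene Nefh (129 and 290) and Col4a1 (158 and 68.6), a basement membrane collagen, whose peak of 4217 bp it shares with Col4a2 (90.0 and 39.6).

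The highest scores did not mark the lowest genes. Sfi1, a centrosomal protein gene, had 10 peaks, a top score of 987 at chr11:3091585-3094378 over its start and 94.6 and 199 normalized counts per kb. H1f3 and H1f2, linker histone genes, had scores of 945 and 846 over their starts with 1.02 and 10.8 and with 7.46 and 36.4 normalized counts per kb, on few reads. Smad6, an inhibitor of BMP signalling, had a score of 608 and 23.3 and 36.1, and Cdk5r2, an activator of the kinase Cdk5, a score of 589 and 3.42 and 7.42. All 5 genes were higher in replicate 2. Sfi1 and the histone genes have close copies elsewhere in the genome, so reads and peaks there are uncertain. The libraries were poly(A) RNA-seq, so low counts at the histone genes may not mean little histone RNA. The widest peaks were those of Cilp2 (7345 bp; 10.8 and 21.7 normalized counts per kb), a cartilage matrix gene, Ankrd63 (6148 bp; 0.16 and 0), Sfi1 (5649 bp), Lrg1 (5344 bp; no reads), a secreted glycoprotein of liver and neutrophils, and Wnt1 (5185 bp at chr15:98619405-98624589; no reads), a signalling protein of the early midbrain. A count of 0 allows up to 3 reads, or 2.33 normalized counts in replicate 1 and 3.27 in replicate 2, for counting error only. Lrg1 had the lowest CpG ratio of these genes, 0.07.

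Around 2000 bp, Megf6 (2002 bp) had 7.25 and 5.41 normalized counts per kb, against 12.1 and 15.6 for Wnt3 and 27.5 and 43.8 for Ccnd2, which encodes cyclin D2 (1999 bp each). The highest levels without a peak were those of Mir682 (76183 and 125165), a microRNA precursor annotated as a short transcript, Eef1a1 (33667 and 34535), the translation elongation factor, Hsp90ab1 (33249 and 30175), a chaperone, Rpl8 (25892 and 30082) and Gm12338 (21052 and 23770).

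Regulators of development carried peaks more often than members at large, of which 13.6% had one. Low CpG-rich members are closer to them, and 31 of the 36 neural factors below were CpG-rich. Of such members 45.0% had a peak at no reads, 68.8% with reads under 1 normalized count per kb and 60.9% at 1 to 10. Of 36 transcription factor genes of neural and ectodermal lineages 20 had a peak, 14 of them broad, and 2 of the 36 were expressed. Neurod2 was listed at 0 in both libraries under a peak of 3842 bp at chr11:98187866-98191707, Dlx6 had 0.35 and 0, Pax2 0.33 and 0.23, and Zic1 0.69 and 0.19 normalized counts per kb. Neurod1, the only expressed one with a peak, had 43.2 and 36.8 and a peak of 309 bp that lay 1333 bp from a start. Of the 16 without a listed peak 7 were silent and Pou4f1 was expressed, at 17.6 and 28.5. The median level, over the mean of the libraries, was 1.14 normalized counts per kb for the 20 neural factors with a peak and 0.816 for the 16 without.

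Of 52 transcription factor genes of mesoderm and endoderm 27 had a peak and 9 were expressed, 4 of them with a peak. Mesp2, a regulator of somite formation, had 14.4 and 24.8 normalized counts per kb and Sox18, of vascular endothelium, 14.8 and 17.5, each under a covering peak with scores of 216 and 320, and Gata3 had 12.3 and 10.5 under 3651 bp. The lowest with a peak were Evx2 and Osr1, both at 0 in both libraries, and Gsc, a gene of the organizer, had 0 in replicate 1 and 8.62 in replicate 2 under a score of 238. T (brachyury) had 4.93 and 6.40. Of the 25 without a peak 5 were expressed, among them Tcf15 at 348 and 519, and 5 were silent, as were 3 of the 27 with one. The median level was 3.79 with a peak and 1.82 without, so within the lineage factors the genes with a peak did not have the lower median.

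Of 58 genes for signalling ligands and their antagonists 34 had a peak, 27 of them with a score of 100 or more, and 6 of the 34 were expressed. Fgf15 was the highest of these, with 109 and 61.5 normalized counts per kb and its peak 230 bp from a start, then Sfrp1, a Wnt antagonist, with 94.0 and 58.6, and Nrg1 with 42.8 and 27.5. Wnt1, Bmp3 and Fgf16 had no reads, and Ihh had 0.31 and 0.88 under 4841 bp. Of the 24 ligands without a peak 7 were expressed and 9 silent, and of the 34 with one 8 were silent. The median level was 3.11 normalized counts per kb without a peak and 2.88 with one. The expressed ligands without a peak included those of the Nodal pathway, which acts in embryonic stem cells: Gdf3 (351 and 557), Lefty2 (167 and 467), Nodal (195 and 358) and Lefty1 (111 and 211). None of the 33 Hox members, which specify position along the body axis, was expressed and 24 were silent. A peak was listed at 12 of them, 7 of them broad, such as Hoxd3, with no reads and peaks at chr2:74560817-74564266 and chr2:74575398-74579260. Of the 12 with a peak 7 were silent, with a median level of 0.604 normalized counts per kb, and of the 21 without one 17, with a median of 0.163.

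Pluripotency and housekeeping genes were the opposite case. Of 19 pluripotency members 18 were expressed and 1 had a peak: Prdm14, with 55.7 and 127 normalized counts per kb and a peak of 684 bp that lay downstream, 1799 bp from a start. Tet1, the member not expressed, had 4 and 6 reads. All 26 housekeeping members were expressed. B2m (462 and 308) and Pgk1 (418 and 332) had narrow peaks with scores of 94.2 and 75.1. Of 62 genes for ribosomal proteins 60 were expressed and Rpl7 alone had a peak. Of 262 numbered Zfp genes, most of which encode zinc finger proteins that bind DNA, 214 were expressed and 18 had a peak, of which 7 were expressed.

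Genes of differentiated tissues were mostly low and mostly without a listed peak. Of 54 such members 2 had a peak and 4 were expressed: Nphs1 (82.3 and 170), Zp3 (50.4 and 144), Tnni3 (39.1 and 62.2) and Krt10 (26.7 and 28.1), all without a peak. Lor of the epidermis, with a peak, had 5.24 and 1.84. Their median CpG ratio was 0.25, against 0.75 for the neural factors. Of 1093 olfactory receptor genes 1050 were silent and 5 had a peak.

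Of 29 germline members 9 had a peak, none of them broad, and 6 of the 9 were expressed, as were 12 of the 20 without a peak. Over all members with a narrow peak the expressed share was 35.2%. Syce1 and Sycp1, of the synaptonemal complex, had 86.5 and 173 and 46.5 and 41.3 normalized counts per kb, and Mael and Mov10l1, of the piRNA pathway, 92.8 and 131 and 44.5 and 65.2. Sycp1 had a peak of score 321 over its start, while those of Mael, Mov10l1 and Syce1 lay 77 to 122 bp away. Among 21 genes for Polycomb proteins and H3K27 demethylases 19 were expressed and 5 had a peak. Eed, a core subunit of PRC2, had 1369 and 1413 normalized counts per kb without a peak. Cbx2, a subunit of Polycomb complex PRC1, had 126 and 136 beside a peak of score 203.

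**Figure D4:**
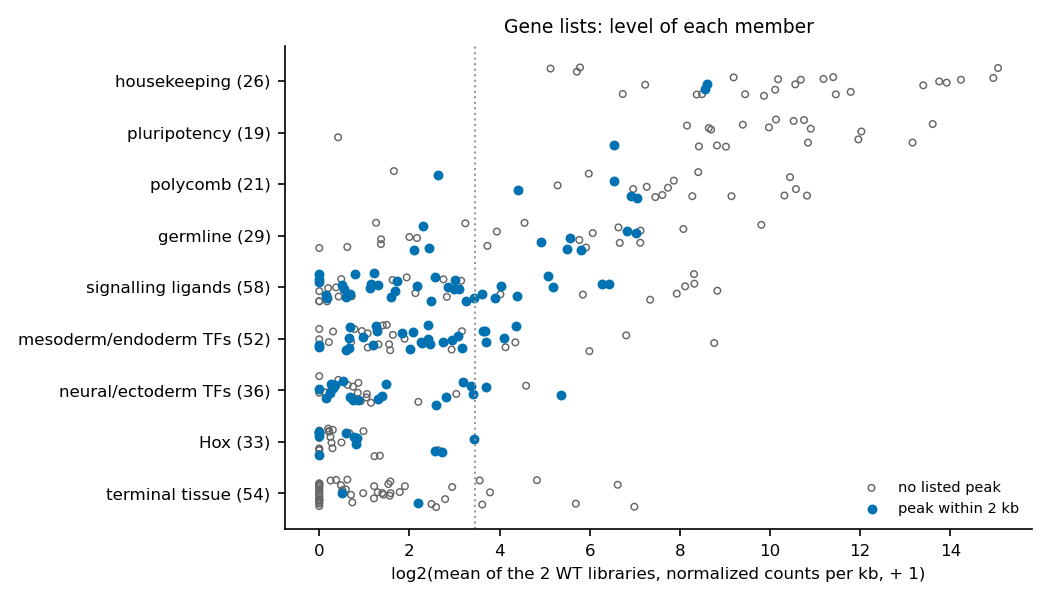
Level of each gene in 9 lists, log2 of the mean of the 2 WT libraries in normalized counts per kb plus 1, with genes that have a peak within 2 kb filled and others open; the number of members is in parentheses, the dotted line marks a level of 10, and vertical spread within a list carries no value. Filled points lie mostly left of the line for signalling ligands (6 of 34 expressed) and for the lineage factors, and right of it for 6 of 9 germline genes.

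Noncoding members with a peak were also less often expressed than those without one, but not less often silent. Of 1587 noncoding members without a peak 17.5% were expressed, against 4.71% of 85 with a score under 100 and 4.05% of 74 with a score of 100 or more, that is 4 and 3 genes. In replicate 1 alone the 3 shares were 22.3%, 5.88% and 8.11%, and in replicate 2 alone 21.99%, 4.71% and 4.05%. Of coding members the shares were 53.0%, 37.8% and 32.1%. The silent share of noncoding members was 52.3% without a peak, 65.9% with a score under 100 and 63.5% with a score of 100 or more, against 32.1%, 19.07% and 18.8% of coding members. A peak that also lay within 2 kb of a start of another gene belonged to 350 members, and 24.9% of them were expressed against 34.0% of the other 1947 with a peak. By chromosome, the share of members with a peak ran from 0 of 15 on Y and 2.72% of 772 on X to 22.6% of 394 on chromosome 18. Among genes with a peak the expressed share was 49.7% on chromosome 8 and 20.2% on chromosomes 6 and 18.

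The marked genes were also lower in WT replicate 2 than in replicate 1 more often than other genes were. Among members with a mean of at least 10 normalized counts, 7.02% were at least 2-fold lower in replicate 2 than in replicate 1 and 4.93% at least 2-fold higher, on the log2(normalized count + 1) scale. For the 697 with a score of 100 or more these shares were 26.97% and 7.60%, for the 608 with a score under 100 23.4% and 5.26%, and for the 7901 without a peak 4.00% and 4.67%. The median log2 difference, replicate 2 minus replicate 1, was −0.40, −0.36 and 0.02. Broad peaks had −0.54 (n = 144) against −0.35 for narrow ones (n = 1161), and covering peaks −0.53 (n = 409) against −0.31 for neighbouring ones (n = 896). The groups differed in counts, with a median of 58.8 normalized counts at a score of 100 or more and 369 without a peak. At means of 10 to 30, 31.65% with a score of 100 or more were at least 2-fold lower, against 17.0% without a peak. The share at least 2-fold higher was then the smaller with a peak, 11.93% against 18.67%.

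The gap was present at every level and among CpG-rich promoters. With a score of 100 or more the median was −0.53 at a mean of 10 to 30, −0.58 at 30 to 100, −0.33 at 100 to 300, −0.13 at 300 to 1000 and −0.16 at 1000 or more (n = 18), and without a peak it stayed between −0.005 and 0.072. Among CpG-rich promoters it was −0.41 against 0.02. In the 2 libraries whose tables are named H1KO the same genes had medians of −0.06, −0.02 and 0.01, so the gap was seen in the WT pair and not to that size in the other. The gap is described without a test, since each side of it is 1 library.

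The largest gaps among genes with a score of 100 or more lay mostly at genes with few reads in replicate 2. Irx4, a ventricular heart factor, had 27 reads in replicate 1 and 0 in replicate 2, that is 20.9 and 0 normalized counts. Rgl3 had 43 reads and 1, Tfap2e, a factor of the AP-2 family, 40 and 1, and Ebf4 36 and 1. The opposite was seen at the histone gene H4f16, with 1 read and 30. Histone cluster genes as a list were higher in replicate 2, with a median log2 difference of 2.51 over 28 genes with a mean of at least 10, and H4c12 went from 22.4 to 224 normalized counts per kb. Summed markers of other cell types were lower in replicate 2. Over the list, 20 fibroblast markers had 3807 and 1705 normalized counts in replicates 1 and 2, with 11 lower in replicate 2 and Col6a3, Dcn, Fap, Lum, Pdgfra, Pdgfrb and Postn at 0 in both. For 15 trophoblast markers the sums were 4170 and 1073, with 8 lower and Elf5, Eomes, Prl3d1 and Tpbpa at 0, and for 14 endoderm markers 6193 and 4351, with 5 lower, 4 higher (Cubn, Gata6, Lama1 and Sox7) and Afp, Foxa2, Pdgfra, Sox17 and Ttr at 0. The lower endoderm sum came mainly from Lamb1 (3197 and 1886), Col4a1 (1047 and 454) and Col4a2 (580 and 255). The 25 pluripotency markers summed to 84214 and 107485, with 4 lower. Krt18 (2291 and 512 normalized counts), Krt8 (1438 and 314) and Tagln (2019 and 436) gave most of the loss in the first lists. The part of these markers, of Rn45s and of the histone genes in the gap was not tested. Whether poly(A) selection differed between the libraries was not tested either.

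**Figure D5:**
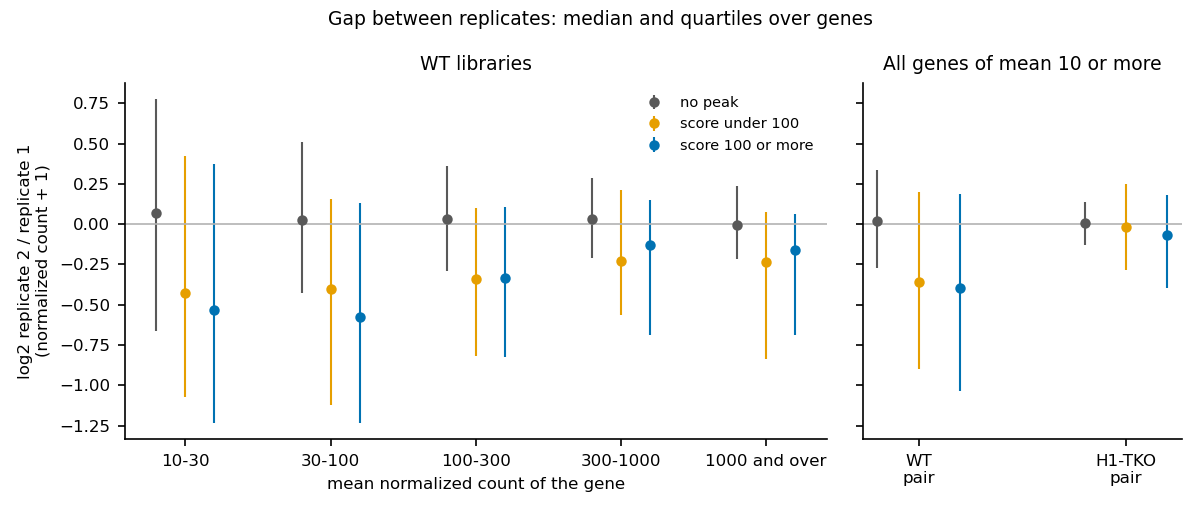
Median and quartiles over genes of log2 replicate 2 over replicate 1 (normalized count + 1) by score group, in bins of the mean normalized count for the WT libraries on the left, and over all genes with a mean of at least 10 for the WT and the H1-TKO pair on the right. In the WT pair the medians of both peak groups lie under 0 in every bin, at −0.40 and −0.36 over all bins, and in the H1-TKO pair they are −0.06 and −0.02.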

How the data were processed

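RNA-seq of WT mESCs was read from 2 tables and H3K27me3 ChIP-seq from 1 peak list. For RNA-seq, the authors mapped reads with Subread, counted them per RefSeq accession with featureCounts and divided the counts by DESeq2 size factors, and deposited the result as a signal per accession, called a normalized count here. Divided by the worth of 1 read in its library, each value came out whole (100%, tolerance 0.01). The peaks are those the authors called with MACS on Bowtie2 alignments to mm9, from 1 replicate, and the deposited score is −10 times the log10 of the p-value.

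Of 34010 accessions 33646 were given a symbol through RefSeq's GRCm38.p6 gene table, which served for naming alone, and 31013 were placed on GENCODE M1 genes of NCBIM37, the same build as mm9. Promoter sequences were read from that genome. Genes with several accessions were not members, since how reads over shared exons were assigned is not given in the sources used here. Peaks were assigned by at least 1 base within 2 kb of a start. Shares have 95% Clopper-Pearson intervals for counting error. No test was run over genes, which are not replicates. Python 3.11.15, numpy 2.4.6, pandas 2.3.3 and scipy 1.17.1 were used, and the assignment step was tested on simulated data.

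Named genes follow a rule: the 10 highest levels with a score of at least 100, the 5 highest scores, widest peaks, levels without a peak and gaps between libraries, the 2 genes on each side of both limits, and the extremes and exceptions of each gene list. Promoters of Wnt1 and Eef1a1, and the levels with covering peaks, were chosen after their values were seen. The members and gene lists were chosen with earlier results of these data known. A few genes that the rule names are not reported here.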

Additional observations from a re-analysis of the deposited data

How the results depend on the processing

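Values are differences in percentage points. The expressed share with a score of 100 or more minus that without a peak was −18.70, and −18.02 and −10.80 in either library alone. It was −10.39 at 5 and −24.12 at 20 normalized counts per kb, −3.93 without division by length, −35.53 over genes with a read, −27.90 for covering peaks, −8.15 over genes with several accessions and −52.90 over CpG-rich promoters. Broad minus narrow was −17.11, and −19.34 and −17.58 in either library alone, −20.00 at 5 per kb, −19.20 without division by length, −8.26 for covering peaks, −15.65 for scores of 60 or more, −15.82 with a limit of 1000 bp, −18.35 for merged peaks, −1.95 over genes with several accessions, −21.71 with the libraries labelled wild type, −22.90 over CpG-rich promoters and −18.41 without chromosomes 1, 8, 11, X and Y, an alternative chosen after seeing the data. The silent share, 100 or more minus no peak, was −12.84, and −5.46 and −11.89 in either library alone, −19.91 at 0 reads, −7.01 under 2 per kb, −19.78 without division by length and −5.08 for covering peaks. It reversed to 6.04 over genes with a read, 13.42 over CpG-rich promoters and 14.39 over genes with several accessions. The other alternatives moved no difference by more than the SD between the libraries.

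Of genes with several accessions, CpG-rich and without a peak, 17.4% were expressed against 89.2% of members. Differences over genes with several accessions may thus reflect how reads were assigned, which was not tested. The gap between replicates with a score of 100 or more was −0.37 with a pseudocount of 5 and −0.43 relative to genes without a peak on the same chromosome, both chosen after seeing the data. No paired analysis was possible because no samples of different groups were compared.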

Other observations

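Among the 14553 genes without a listed peak, Spearman's rho of the CpG ratio with the mean level was 0.73, against 0.30 in both libraries among the 2297 genes with one, a description over genes that share libraries and annotation. Among the 5789 CpG-rich genes without a peak, 181 were silent.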
